A study of Mus musculus with 4 samples.

Results

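The promoters of the vomeronasal receptor genes were examined in mouse embryonic stem (mES) cells. A promoter was the 4 kb window from 2 kb upstream to 2 kb downstream of the annotated transcription start site (TSS). Members were chosen by name alone, as protein-coding genes of chromosomes 1 to 19 called Vmn1r or Vmn2r followed by a number, and this gave 319 promoters of 21418 (203 Vmn1r and 116 Vmn2r). They carry 318 names, since Vmn1r63 stands for 2 gene identifiers whose windows overlap.

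The series holds 4 libraries of chromatin from untreated mES cells, and all 4 share the cell line E14 and the strain 129P2/OlaHsd in their labels. The study's methods instead derive the wild type cells from blastocysts, with growth on feeder cells and later passages on gelatin without feeders. One library each was made with ab4441 against acetylated lysine 9 of histone H3 (H3K9ac), with 13HH3-1A5 against acetylated lysine 14 (H3K14ac, here 13HH3), with 7G8, another antibody against H3K14ac, and from input DNA. With 1 library per antibody no test between groups exists, and the 95% intervals given here cover counting error only, not variation between libraries or cultures.

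Vomeronasal receptors are G protein-coupled receptors of sensory neurons in the vomeronasal organ, which detects pheromones and scents of other animals. Vmn1r receptors have a short extracellular end and a coding sequence in 1 exon, and act with the G protein subunit Gnai2 in apical neurons. Vmn2r receptors have a large extracellular domain encoded by several exons, and act with Gnao1 in basal neurons. Both families lie in dense clusters, some of which hold near-identical copies, and a neuron uses 1 or few of the genes. Acetylation of H3K9 and H3K14 is found at the starts of transcribed genes.

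In all, 6 stretches of sequence (mm9, shown 5′ to 3′ in the direction of the gene, CpG dinucleotides in capitals) carry the findings described in the following paragraphs. The first 4 are 240 bases from regions enriched for acetylation within 2 kb of a receptor start, which were found at 4 members only. The fifth is the upstream sequence that 3 receptors of chromosome 7 share base for base, so that no tag can be placed on 1 of them. The sixth is the upstream sequence of the member with the most H3K9ac tags, and it holds 0 CpG.
Vmn1r1, coding exon, chr1:184087806-184088045, - strand: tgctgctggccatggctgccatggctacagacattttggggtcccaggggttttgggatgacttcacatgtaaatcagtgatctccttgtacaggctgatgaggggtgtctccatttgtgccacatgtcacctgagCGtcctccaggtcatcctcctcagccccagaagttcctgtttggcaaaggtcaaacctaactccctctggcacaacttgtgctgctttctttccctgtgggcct
Vmn1r235, first intron, chr17:21397681-21397920, + strand: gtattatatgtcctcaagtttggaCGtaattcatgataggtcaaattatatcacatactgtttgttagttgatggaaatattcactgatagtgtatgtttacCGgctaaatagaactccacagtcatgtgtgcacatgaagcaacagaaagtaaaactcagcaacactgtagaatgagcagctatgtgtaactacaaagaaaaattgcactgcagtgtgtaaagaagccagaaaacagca
Vmn2r56, first intron, chr7:13317031-13317270, - strand: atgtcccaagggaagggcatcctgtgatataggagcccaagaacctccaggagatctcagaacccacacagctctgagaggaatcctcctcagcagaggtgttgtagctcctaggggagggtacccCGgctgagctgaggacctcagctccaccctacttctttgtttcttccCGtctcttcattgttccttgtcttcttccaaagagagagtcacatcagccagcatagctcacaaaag
Vmn1r87, upstream, chr7:13718256-13718495, - strand: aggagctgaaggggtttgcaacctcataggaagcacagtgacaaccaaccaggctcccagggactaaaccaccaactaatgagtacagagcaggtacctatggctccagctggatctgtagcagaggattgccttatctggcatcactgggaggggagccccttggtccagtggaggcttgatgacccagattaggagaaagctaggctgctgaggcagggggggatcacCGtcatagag
Vmn1r93, Vmn1r114 and Vmn1r126, 250 bases upstream of Vmn1r93, chr7:20724438-20724687, - strand: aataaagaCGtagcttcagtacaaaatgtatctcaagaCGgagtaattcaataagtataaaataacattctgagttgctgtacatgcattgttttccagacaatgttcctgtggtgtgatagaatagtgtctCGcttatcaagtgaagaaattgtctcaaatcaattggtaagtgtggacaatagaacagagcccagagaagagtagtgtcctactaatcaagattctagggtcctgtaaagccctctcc
Vmn1r235, 250 bases upstream, chr17:21397141-21397390, + strand: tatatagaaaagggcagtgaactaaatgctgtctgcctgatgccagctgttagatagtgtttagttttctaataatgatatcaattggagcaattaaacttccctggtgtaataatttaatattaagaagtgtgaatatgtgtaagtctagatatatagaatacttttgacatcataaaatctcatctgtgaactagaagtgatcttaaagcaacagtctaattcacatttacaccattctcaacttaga
The enriched stretches hold 1 or 2 CpG each. The one of Vmn1r1 has a GC content of 53.3%, that of Vmn2r56 52.5% and that of Vmn1r87 55.0%, whereas the intronic stretch of Vmn1r235 has 36.2%.

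The libraries hold 19313927 to 23839094 deposited reads (tags) of 36 bases. In the 13HH3 library 738711 tags repeated a position and strand and were counted once. At the receptor promoters this depth gave a median of 15 tags for H3K9ac, 14 for 13HH3, 25 for 7G8 and 17 for input. At an input of 17 tags, the interval of a single promoter lay above input only from 38 tags of H3K9ac (1.86-fold), 35 of 13HH3 (1.84-fold) or 39 of 7G8 (1.86-fold). At this input, smaller enrichment of a single receptor promoter was not detectable, and the limit is lower for promoters with more input tags and higher for those with fewer.

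The cells were checked against marker lists. Of 10 genes of embryonic stem cells, 9 had a region enriched for H3K9ac within 2 kb of the start, with a log2 ratio over input of 4.09 at Zfp42, 3.47 at Sox2 and 2.49 at Pou5f1. Esrrb was the exception, at 0.012. Over all TSSs, 66.2% had an H3K9ac region and 26.0% a 7G8 region. Of 7 genes of fibroblasts, which feeder cells are, 4 had an H3K9ac region and 0 a 7G8 region, and their H3K9ac log2 ratios ran from -0.76 (S100a4) to 1.15 (Prrx1). The part of feeder cells in the receptor values was not tested.

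Tags at the receptor promoters were few in every library. H3K9ac ranged from 0 to 30.6 tags per 10000000 tags of the library, the unit of all levels here, with a median of 6.47, whereas the median over all TSSs was 52.2. For 13HH3 the range was 0 to 30.5 and the median 6.47, and for input 0 to 21.7 and 8.80. For 7G8 it was 0 to 35.7, with medians of 10.9 at Vmn1r and 9.44 at Vmn2r promoters. The ranges of the ChIP libraries and of input therefore overlap over most of their length. The plot of tags at each promoter shows both receptor families spread over the same low range.

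**Figure D1:**
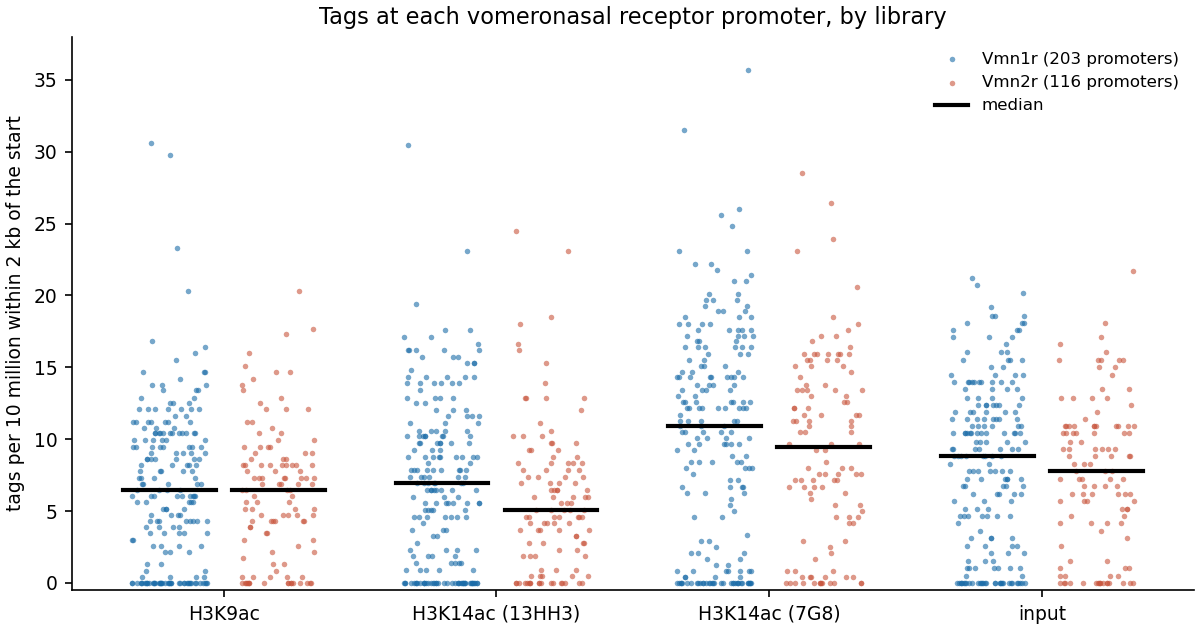
Tags per 10000000 within 2 kb of the annotated start (y axis) of each vomeronasal receptor promoter in the 3 ChIP libraries and input (x axis), 203 Vmn1r in blue and 116 Vmn2r in red, with the median as a bar. Medians lie between 5.09 and 10.9, many promoters are at 0, and the highest values are 30.6 for H3K9ac and 35.7 for 7G8.

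Summed over all 319 promoters, H3K9ac and 13HH3 lay below input and 7G8 above it. The log2 ratio over input was -0.30 for H3K9ac (95% interval -0.35 to -0.24), from 4816 tags against 4930 of input. It was -0.28 for 13HH3 (-0.34 to -0.22), from 4543 tags. For 7G8 it was 0.30 (0.24 to 0.35), from 7476 tags. In folds of the level in input these are 0.814, 0.823 and 1.23. Over all TSSs the log2 ratios were 1.57, 0.44 and 0.38 in the same order, so the receptors stood 1.87 lower than the other TSSs for H3K9ac, 0.72 lower for 13HH3 and 0.088 lower for 7G8.

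The sign for H3K9ac rests on how the libraries are scaled. Bins of 10 kb that touch no enriched region hold 46.1% of the H3K9ac tags, 56.6% of the 13HH3 tags, 61.3% of the 7G8 tags and 64.7% of the input tags. Scaling by the tags in those bins raised every H3K9ac ratio by 0.49, every 13HH3 ratio by 0.19 and every 7G8 ratio by 0.077 on the log2 scale. The receptor promoters then stood at 0.19 for H3K9ac, -0.089 for 13HH3 and 0.37 for 7G8. Whether H3K9ac stood above or below input thus depends on the scaling. Differences between sets of regions within a library are the same under both scalings.

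Olfactory receptor and keratin promoters, which also belong to clustered gene families of differentiated tissues, served for comparison. At 1081 olfactory receptor TSSs the log2 ratio was -0.52 for H3K9ac, -0.30 for 13HH3 and 0.11 for 7G8. The vomeronasal receptors lay 0.23 above them for H3K9ac (0.16 to 0.29) and 0.18 above for 7G8 (0.13 to 0.24). For 13HH3 the difference was 0.020 (-0.044 to 0.083), within counting error. At 97 keratin and keratin-associated TSSs the values were -0.34, -0.089 and -0.30, which the vomeronasal receptors exceeded by 0.60 for 7G8 (0.52 to 0.68) and missed by 0.19 for 13HH3 (difference -0.19, -0.28 to -0.11). The H3K9ac difference from the keratins was 0.044 (-0.040 to 0.13). The median GC content of the windows was 36.7% at the vomeronasal receptors, 36.6% at the olfactory receptors and 45.6% at the keratins. Its part in the differences from the keratins was not tested. The 7238 TSSs without an H3K9ac region stood at -0.24, -0.073 and -0.11.

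The receptor families, which differ in gene structure and in the G protein they use, had close values. The log2 ratio over input of Vmn1r and Vmn2r was -0.33 and -0.24 for H3K9ac, -0.24 and -0.36 for 13HH3, and 0.29 and 0.31 for 7G8. The difference (Vmn1r minus Vmn2r) was -0.083 for H3K9ac (-0.20 to 0.037), 0.11 for 13HH3 (-0.0099 to 0.24) and -0.015 for 7G8 (-0.12 to 0.095). All of these intervals hold 0, so the families were not distinguished within counting error, and differences up to the bounds remain possible. The ratio of 13HH3 to H3K9ac did differ, by 0.20 (0.073 to 0.32), with 0.083 in Vmn1r (0.010 to 0.15) and -0.11 in Vmn2r (-0.22 to -0.013). This ratio also moved with GC content, from -0.29 at members below 35% GC to 0.071 from 35 to 40% and 0.32 from 40 to 45%, and the median GC content was 37.6% for Vmn1r and 34.4% for Vmn2r. The part of GC content in the family difference was not tested. Both families share chromosomes 6, 7 and 17 and each library, and the promoters are not replicates of a condition.

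Where the families lie side by side, the order was not fixed. In the mixed cluster of chromosome 17 (17a in the plot of clusters), 13HH3 was -0.27 at 13 Vmn1r promoters (-0.49 to -0.039) and -0.59 at 21 Vmn2r promoters (-0.83 to -0.36). In the mixed cluster 7c of chromosome 7, 13HH3 was -0.31 at 24 Vmn1r promoters (-0.49 to -0.13) and 0.22 at 20 Vmn2r promoters (-0.13 to 0.57). The Vmn2r promoters were thus the lower ones in 17a and the higher ones in 7c. Uniquely mapping starts had a median of 94.4% for the Vmn1r and 14.5% for the Vmn2r promoters of 7c, against 97.6% and 91.5% in 17a, and their part in the difference was not tested.

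The ratio of H3K14ac to H3K9ac was examined because both marks are often found together at active promoters. Per 10000000 tags, the receptors held as many 13HH3 as H3K9ac tags (log2 ratio 0.016, -0.043 to 0.075). At the olfactory receptors the ratio was 0.22, at the keratins 0.25, at the intergenic windows of the receptor clusters 0.16, and over all TSSs -1.13. At the TSSs without an H3K9ac region, which were chosen by these same H3K9ac tags, it was 0.17. The vomeronasal receptors were thus lower than the olfactory receptors by 0.21 (difference -0.21, -0.27 to -0.14). With the other antibody, the ratio of 7G8 to H3K9ac was 0.59 (0.54 to 0.65), near the 0.64 of the olfactory receptors (difference -0.041, -0.098 to 0.016). This ratio was above the 0.039 of the keratins, whose median GC content is higher. It was 0.50 at the intergenic windows and 0.13 at the TSSs without an H3K9ac region. With scaling by bins without an enriched region, the 13HH3 ratio fell to -0.28 and the 7G8 ratio to 0.18. The antibodies against H3K14ac thus gave different readings of the same promoters, 0.58 apart on the log2 scale (13HH3 over 7G8 -0.58, -0.63 to -0.52). This gap was not particular to the members, with -0.41 at the olfactory receptors, -0.33 at the intergenic windows and 0.052 over all TSSs.

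The receptors lie in clusters, and clusters were formed by joining members less than 1 Mb apart into groups of at least 3. This gave 17 clusters with 307 members and left 12 members at 9 places apart, on 11 chromosomes in all. The largest cluster, 7d, holds 64 Vmn1r genes (chr7:20684507-24841792). Cluster 7c holds 24 Vmn1r and 20 Vmn2r (chr7:8952257-13806687), 17a 13 Vmn1r and 21 Vmn2r (chr17:17838905-21452926), 13 32 Vmn1r (chr13:22177747-23343106) and 6a 28 Vmn1r (chr6:56904460-58424871). The smaller Vmn1r clusters are 6b (8 genes, chr6:66507702-66757325), 6c (15 genes, chr6:89662197-90221099) and, with 1 Vmn2r beside 12 Vmn1r, 7a (chr7:5097103-5964611). The purely Vmn2r clusters hold 4 to 13 members each. On chromosome 7 these are 7b (chr7:7198039-7857172), 7e (chr7:48702011-50191158) and 7f (chr7:92110519-94146974), and on chromosome 10 they are 10a (chr10:78609542-78933687) and 10b (chr10:129829297-129936434). The others are 3 (chr3:63883564-64650686), 5 (chr5:109235773-109851031), 6d (chr6:123256351-124183801) and 17b (chr17:22708240-23618563).

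The log2 ratio over input varied between clusters. H3K9ac ran from -0.70 in 7a (-1.0036 to -0.40) to 0.10 in 7e (-0.28 to 0.49), with a median of -0.26, and in 9 of 17 clusters the whole interval lay below 0. 13HH3 ran from -0.91 in 6d (-1.31 to -0.52) to 0.22 in 3 (-0.14 to 0.58), and 10 clusters lay below 0 with their whole interval. 7G8 was above 0 in 15 clusters, in 11 of them with the whole interval, and ran from -0.29 in 10a (-0.68 to 0.099) to 0.84 in 7b, where 31 tags against 14 of input gave an interval of -0.11 to 1.87. No cluster lay above input with its whole interval for H3K9ac or 13HH3. These counts against input hold only with scaling by all tags of the library. Scaling by bins without an enriched region raises each cluster by 0.49 for H3K9ac, 0.19 for 13HH3 and 0.077 for 7G8, which changes the counts. The ratio of 13HH3 to H3K9ac ran from -0.67 in 17b (-1.05 to -0.30) to 0.66 in 7a (0.37 to 0.96), so that clusters differed from each other by more than both intervals.

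Intergenic windows of 4 kb tiled over the same clusters, outside every annotated gene and every receptor window, gave the local level (4257 windows). This rule does not keep windows away from the starts of other genes, so the local level is not a neutral one. For H3K9ac a window held up to 403 tags, against up to 71 at a receptor promoter, although the medians were 9 and 15. The windows stood at -0.38 for H3K9ac, -0.21 for 13HH3 and 0.12 for 7G8. The 307 receptor promoters in clusters lay above them for 7G8, by 0.17 (0.11 to 0.22), in 12 of 17 clusters, in 8 of these with the whole interval of the difference, and in 0 clusters below them with the whole interval. For 13HH3 the receptors lay slightly below the windows (difference -0.088, -0.15 to -0.026), with 4 clusters below and 0 above by their whole interval. Among windows of 35 to 40% GC the 13HH3 difference was 0.0075, and for 7G8 it was 0.11.

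For H3K9ac the difference between receptor promoters and windows over all clusters was 0.056, with an interval that holds 0 (-0.0060 to 0.12). The difference depended on which chromosomes were included. Against the windows of all clusters, it was 0.013 for the Vmn1r promoters (-0.061 to 0.088) and 0.14 for the Vmn2r promoters (0.035 to 0.24). These windows include clusters without the family compared, so they are not the local level of that family. Against windows of the same cluster, the purely Vmn1r clusters ran from 0.0365 (6c) to 0.32 (6a). The purely Vmn2r clusters ran from -0.36 (10a) to 0.48 (7f). Among windows and members of 35 to 40% GC the difference was 0.10. Without the clusters of chromosome 7 the difference over all promoters was 0.19, without those of chromosome 17 -0.0046 and without those of chromosome 6 0.0195. In 7c the promoters were at -0.47 and the 826 windows around them at 0.0013 (difference -0.47, -0.63 to -0.30). The part of windows close to other genes in this difference and in that over all clusters was not tested. In 17a (difference 0.39, 0.24 to 0.55), 7f (0.48, 0.17 to 0.78) and 6a (0.32, 0.13 to 0.51) the promoters were higher. With windows that touch no enriched region, the difference over all clusters was 0.20. These windows were picked by the same tags, which by itself lowers their level and widens the difference.

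**Figure D2:**
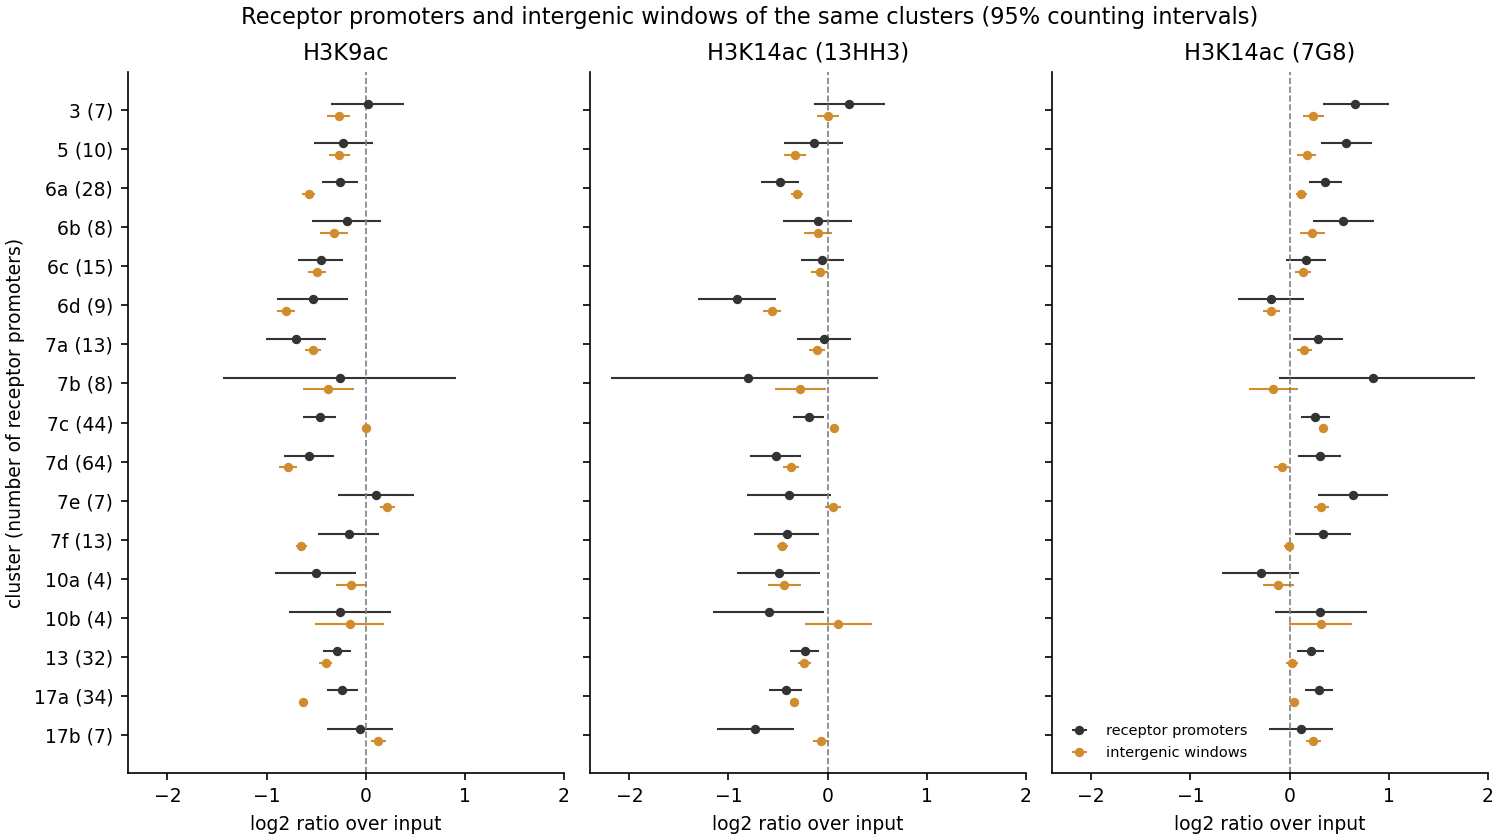
Log2 ratio over input (x axis) of the receptor promoters (black) and of the intergenic windows (orange) in each of 17 clusters (y axis, named by chromosome with the number of promoters), one panel per ChIP library, with 95% counting intervals as bars and the level of input as a dashed line. For 7G8 the promoters lie above the windows in 12 clusters, and for H3K9ac the promoters of 7c lie 0.47 below their windows.

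Tags were then read along the genes, in bins of 250 bp out to 5 kb on both sides of the start. Within 500 bp of the start the receptors had a log2 ratio of -0.30 for H3K9ac, and 2 to 5 kb away -0.41, a difference of 0.12 (-0.0085 to 0.24). For 13HH3 the difference was -0.053 (-0.18 to 0.074) and for 7G8 0.15 (0.035 to 0.26). For 7G8 it was 0.24 (0.051 to 0.42) at the Vmn2r starts and 0.092 (-0.049 to 0.23) at the Vmn1r starts, whose intervals overlap. At the protein-coding TSSs that are neither vomeronasal nor olfactory receptors nor keratins the same differences were 1.44, 0.65 and 0.57. The rise towards the start was thus smaller at the receptors than at those genes, with intervals that were apart for each antibody. At the olfactory receptors the values were -0.15, 0.018 and -0.061, and at the keratins 0.49, 0.52 and 0.083 (-0.040 to 0.21).

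**Figure D3:**
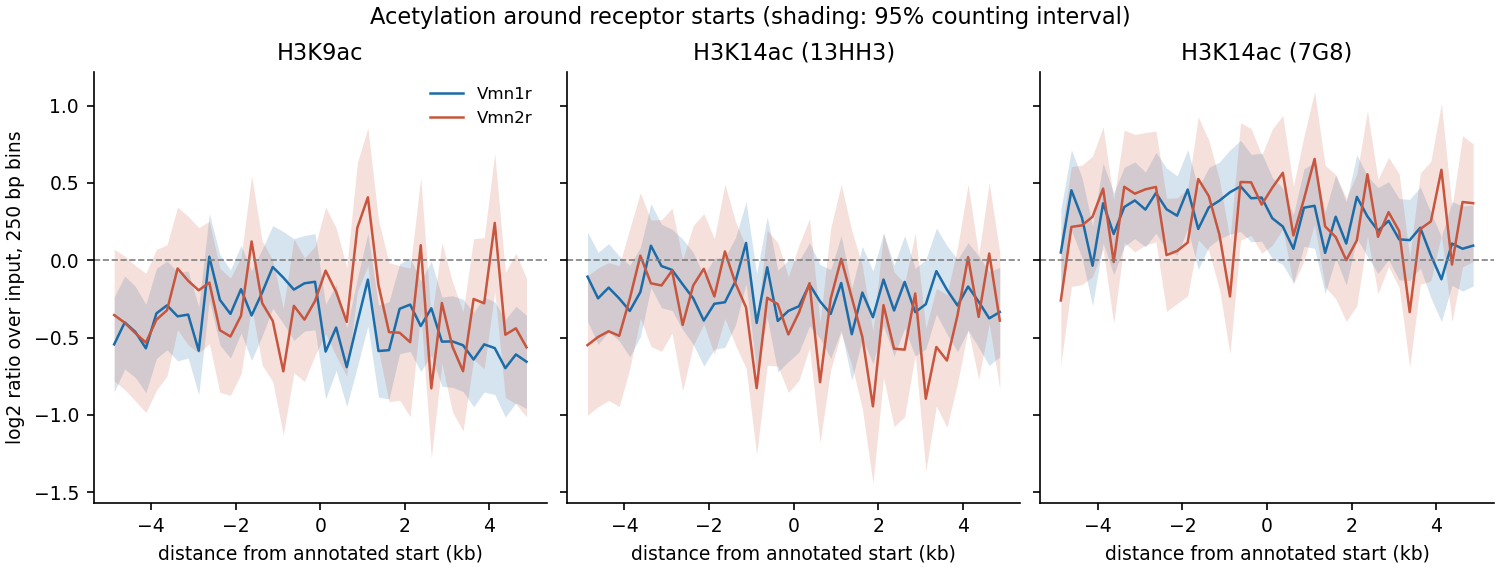
Log2 ratio over input (y axis, bins of 250 bp) against the distance from the annotated start in kb (x axis) for Vmn1r (blue) and Vmn2r (red), one panel per ChIP library, with the 95% counting interval shaded. Within 500 bp of the start all receptors together are at -0.30 for H3K9ac and at 0.37 for 7G8, 2 to 5 kb away at -0.41 and 0.23, and no sharp peak stands at the start.

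The annotated start may not be the promoter of these genes. In 230 of 319 members (72.1%) the annotated start is the start codon itself, as in 8.68% of all TSSs, so these gene models hold no leader sequence. A RefSeq start could be placed once on mm9 for 235 members. It was the same base for 193 of them, within 100 bp for 224, and more than 2 kb away for 5, at most 30961 bp upstream. With these starts the ratios were -0.30, -0.29 and 0.29. Since most of the windows are nearly the same as before, these ratios cannot show whether a promoter lies elsewhere. The 5 starts more than 2 kb away had -0.55 (-0.94 to -0.16), -0.25 (-0.62 to 0.13) and 0.23 (-0.10 to 0.58). The members with an annotated leader had -0.22 for H3K9ac and -0.22 for 13HH3.

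Regions enriched over local input were called in windows of 400 bp at a Poisson probability of 1e-05. An H3K9ac region lay within 2 kb of 1 receptor start (0.313%), whereas 66.2% of all TSSs had one. A 13HH3 region lay at 3 members (0.940%, against 29.1% of all TSSs) and a 7G8 region at 1 (0.313%, against 26.0%). At the stricter probability of 1e-10 none of the 319 had a region in any library, while 57.3% of all TSSs had an H3K9ac region, 8.73% a 13HH3 region and 6.31% a 7G8 region. Members with few tags could not be called, the 37 with 0 tags among them. The rate was at least the genome mean, without allowance for unique starts. The member region with the fewest tags of its own antibody held 15. The whole window of a member held a median of 15 tags of H3K9ac and 14 of 13HH3. These shares therefore cannot be compared directly with those of TSSs that hold more tags. At the olfactory receptors 20 of 1081 had an H3K9ac region (1.85%).

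Vmn1r235, in cluster 17a, was the member with both an H3K9ac and a 7G8 region. Its window held 71 tags of H3K9ac, 50 of 13HH3, 85 of 7G8 and 37 of input, the most H3K9ac and 7G8 tags of all members. The log2 ratios were 0.68 for H3K9ac (0.084 to 1.29), 0.27 for 13HH3 (-0.37 to 0.93) and 0.90 for 7G8 (0.32 to 1.49). The H3K9ac region (chr17:21397501-21397950) is centred 335 bp inside the gene, over the leader and the first intron printed above, with 19 tags against 7 of input. Its upstream sequence without a CpG stands next to the region, and the whole window has 17 CpG.

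Vmn1r1, a lone receptor on chromosome 1 (start chr1:184088450), had the highest ratio of H3K9ac and of 13HH3 among members with at least 10 input tags. It held 69, 66 and 75 tags of H3K9ac, 13HH3 and 7G8 against 26 of input. All 3 antibodies were therefore above input, with log2 ratios of 1.14 (0.47 to 1.85), 1.18 (0.51 to 1.90) and 1.22 (0.56 to 1.93). These ratios share the same 26 input tags, so they are not independent readings. Its 13HH3 region (chr1:184087601-184088250) covers the coding exon printed above, with 26 tags of 13HH3, 12 of H3K9ac, 19 of 7G8 and 9 of input.

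The 2 other members with 13HH3 regions lie in cluster 7c. Vmn2r56 held 53 tags of 13HH3 against 35 of H3K9ac, 44 of 7G8 and 26 of input (13HH3 log2 ratio 0.86, 0.16 to 1.60). Its regions lie in the first intron (22 tags of 13HH3 and 5 of input) and at -2097 bp from the start, upstream. Vmn1r87 held 42 tags of 13HH3, 26 of H3K9ac, 45 of 7G8 and 31 of input, and its window had a 13HH3 log2 ratio of 0.27 (-0.43 to 0.99). The region is centred at -669 bp from its start, upstream, with 15 tags of 13HH3, 2 of H3K9ac, 7 of 7G8 and 5 of input. It is the region with the fewest H3K9ac tags of the 6.

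Members were also counted by fold, with 1 tag per 10000000 added to both values. At least 2-fold over input were 5 members for H3K9ac, against 55.4% of all TSSs, 2 for 13HH3 (14.7%) and 18 for 7G8 (15.1%). At most 0.5 of input were 35 members for H3K9ac (against 3.98% of all TSSs), 36 for 13HH3 (11.3%, against 2.19%) and 14 for 7G8 (4.39%, against 1.37%). By the interval of the single promoter, 4 members lay above input for H3K9ac (64.7% of all TSSs), 4 for 13HH3 (33.3%) and 22 for 7G8 (32.6%). Below input were 32 (6.98% of all TSSs), 30 (4.44%) and 9 (4.77%). The shares above input were thus under the background for every antibody. At the olfactory receptors they were close to those of the members, with 1.30% against 1.25% for H3K9ac, 1.11% against 1.25% for 13HH3 and 7.40% against 6.90% for 7G8. The median input was 17 tags at the members, 24 at the olfactory receptors and 36 over all TSSs, and fewer input tags make such a call harder for a single promoter.

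The members with the highest 7G8 ratios were Vmn1r175, Vmn2r66 and Vmn1r178. Vmn1r178 held 50 tags of 7G8 against 16 of input, with 24 of H3K9ac and 24 of 13HH3 (7G8 log2 ratio 1.34, 0.50 to 2.25). Vmn1r175 held 34 against 10 (1.46, 0.41 to 2.64) and Vmn2r66 32 against 10 (1.37, 0.31 to 2.56). In all 3 the H3K9ac interval held 0. Vmn2r120, apart on chromosome 17, had the third most 7G8 tags (68), but also the most input tags of all members (42), and its 7G8 ratio was 0.39 (-0.18 to 0.98).

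Other members had 1 of the 3 highest ratios for H3K9ac or 13HH3 among members with at least 10 input tags. Like all members named for the highest or lowest ratios, they were picked by these same values. Their intervals do not allow for that choice. Vmn1r90, a lone receptor on chromosome 7, held 54 tags of H3K9ac, 37 of 13HH3, 34 of 7G8 and 21 of input (H3K9ac log2 ratio 1.10, 0.35 to 1.90). Its window is unlike those of the other members, with a GC content of 53.0% and 193 CpG. Vmn1r210 in cluster 13 held 47 tags of H3K9ac against 20 of input (0.97, 0.19 to 1.80), and Vmn1r35 in 6b held 31 of 13HH3 against 13 (1.09, 0.11 to 2.15). No annotated gene other than the receptor overlaps the windows of Vmn1r1, Vmn1r235, Vmn2r56, Vmn1r87, Vmn1r90 and Vmn1r210.

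At the low end, Vmn1r170 in cluster 7d held 1 tag of H3K9ac, 3 of 13HH3, 3 of 7G8 and 14 of input, and was lowest or next to lowest for every antibody. Its interval lay below input for H3K9ac (upper bound -1.35), 13HH3 (-0.54) and 7G8 (-0.68). These ratios share the same 14 input tags, so they are not independent readings. Vmn1r9 in 6a was low for H3K9ac only, with 2 tags against 12 of input, 11 of 13HH3 and 16 of 7G8. Vmn1r56 in 7a held 8 tags of H3K9ac and 25 of input (log2 ratio -1.91, -3.27 to -0.71). For 13HH3, Vmn2r67 and Vmn2r78, both in 7f, held 4 and 6 tags against 21 and 19 of input. For 7G8, Vmn1r62 in 7a held 11 against 24 and Vmn2r22 in 6d 7 against 15.

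How many tags a receptor promoter can hold depends on its copies, since only tags that map to 1 place were deposited. The share of start positions whose 36 bases occur once in the genome had a median of 77.9% over the members and 97% over all TSSs. It was below 50% for 95 members, below 10% for 55 and 0 for 21. Of the repeated words, 77.1% recur in the window of another receptor. Identical upstream sequences of 250 bases were found in 36 members, which form 16 groups of 2 or 3, 13 of them in cluster 7d. Vmn1r93, Vmn1r114 and Vmn1r126, whose shared sequence is printed above, have at most 5.05% unique starts and 4 tags in all 4 libraries together.

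Tag counts followed the unique starts in every library. Across the 319 promoters, which share library and depth, Spearman's rho between tags and unique share was 0.769 for input, 0.781 for H3K9ac, 0.744 for 13HH3 and 0.815 for 7G8. The 55 promoters below 10% held 5 tags of H3K9ac, 8 of 13HH3, 16 of 7G8 and 18 of input together, and 37 members held 0 tags in every library, where no level can be read. In cluster 7d, with a median of 6.43% unique starts, 64 promoters held 293 input tags. At 90% or more, 96 promoters held 2269 input tags, and their log2 ratios of -0.31 for H3K9ac (-0.39 to -0.22), -0.26 for 13HH3 and 0.35 for 7G8 were near those of all members.

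**Figure D4:**
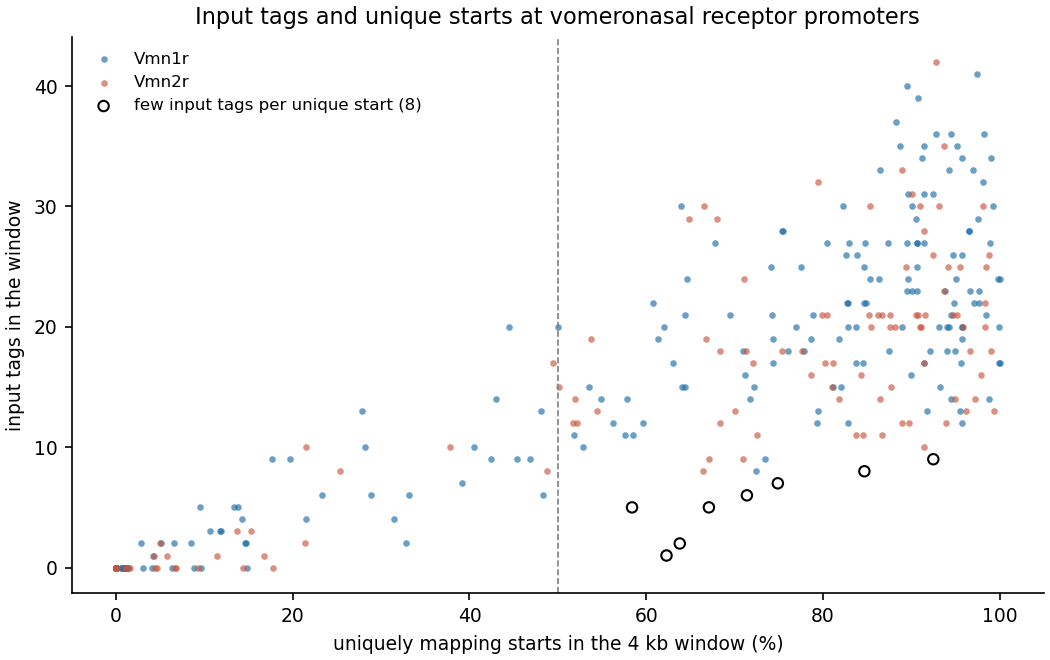
Input tags in the 4 kb window (y axis) against the share of uniquely mapping starts (x axis, %) for each receptor promoter, Vmn1r in blue and Vmn2r in red, with 50% as a dashed line and the 8 promoters with few input tags per unique start circled. Counts rise from 0 tags at 0% to up to 42 tags above 90%, and the circled promoters hold 1 to 9 tags.

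Some receptor promoters held few input tags although at least 50% of their starts map uniquely. Of 224 members with at least 50% unique starts, 8 (3.57%, exact interval 1.55 to 6.92%) held less than 25% of the mean input tags per unique start, against 0.271% of all TSSs (55 of 20314). At the olfactory receptors the share was 1.22% (13 of 1064, 0.652 to 2.08%), an interval that overlaps that of the members. The 8 members are Vmn1r188, Vmn1r10, Vmn1r15, Vmn2r92, Vmn2r96, Vmn2r97, Vmn2r63 and Vmn2r71. Vmn1r188 held 1 tag of H3K9ac, 2 of 13HH3, 3 of 7G8 and 1 of input at 62.3% unique starts. Vmn2r96 held 3, 0, 2 and 2 at 63.8%. In both, all 4 libraries lay below the rate of the cluster's windows, though H3K9ac at Vmn2r96 held 3 tags against 6.2 at that rate. At Vmn2r96 the stretch with under 25% of the tags of the cluster's windows, over all libraries together, did not extend beyond the 4.0 kb window. Vmn1r188 lies at the edge of cluster 13. Its stretch did not extend into the cluster, and the side outside the cluster was not examined. The labels name the strain 129P2/OlaHsd while mm9 is the sequence of another strain, and the part of strain differences in these windows was not tested. Over all members with 50% unique starts the median was 0.582 of the mean over TSSs, against 0.656 at the olfactory receptors and 0.936 over all TSSs.

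The receptor promoters are poor in CpG. Their windows have a median GC content of 36.7% and 16 CpG, against 48.1% and 86 CpG over all TSSs, and the ratio of observed to expected CpG was 0.115 against 0.372. A stretch of 200 bp rich in CpG lay in 12 windows (3.76%), against 72.0% of all TSSs. In the 250 bases upstream, 111 members (34.8%) had 0 CpG, as had 7.43% of all TSSs and 45.4% of the olfactory receptors. The 12 members with a CpG-rich stretch had log2 ratios of -0.24 for H3K9ac (-0.52 to 0.046), -0.044 for 13HH3 (-0.32 to 0.23) and 0.36 for 7G8 (0.10 to 0.61), whose intervals hold the values of the other 307.

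The ratios moved with GC content. For 13HH3 the members were at -0.51 below 35% GC (95 members), at -0.28 from 35 to 40% (198) and at 0.079 from 40 to 45% (24). The intergenic windows of the clusters followed the same course, with -0.46, -0.29 and -0.099. For 7G8 the members were at 0.38, 0.27 and 0.27, the windows at 0.30, 0.16 and 0.058, and other TSSs without an enriched region at 0.053, 0.083 and -0.086. Those other TSSs were chosen by these same tags for lacking a region, while members with a region were kept, so the sets are not alike. For H3K9ac the members were at -0.23, -0.35 and -0.24, and the windows at -0.39, -0.45 and -0.35. For H3K9ac and 7G8 the members thus lay above windows of like GC content in each of the 3 classes, but the intervals of both sets were apart only for 7G8 from 35 to 40% and from 40 to 45%. Overlap of separate intervals does not place a difference within counting error, and no interval of the difference was computed by class. Only 2 members have over 45% GC.

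**Figure D5:**
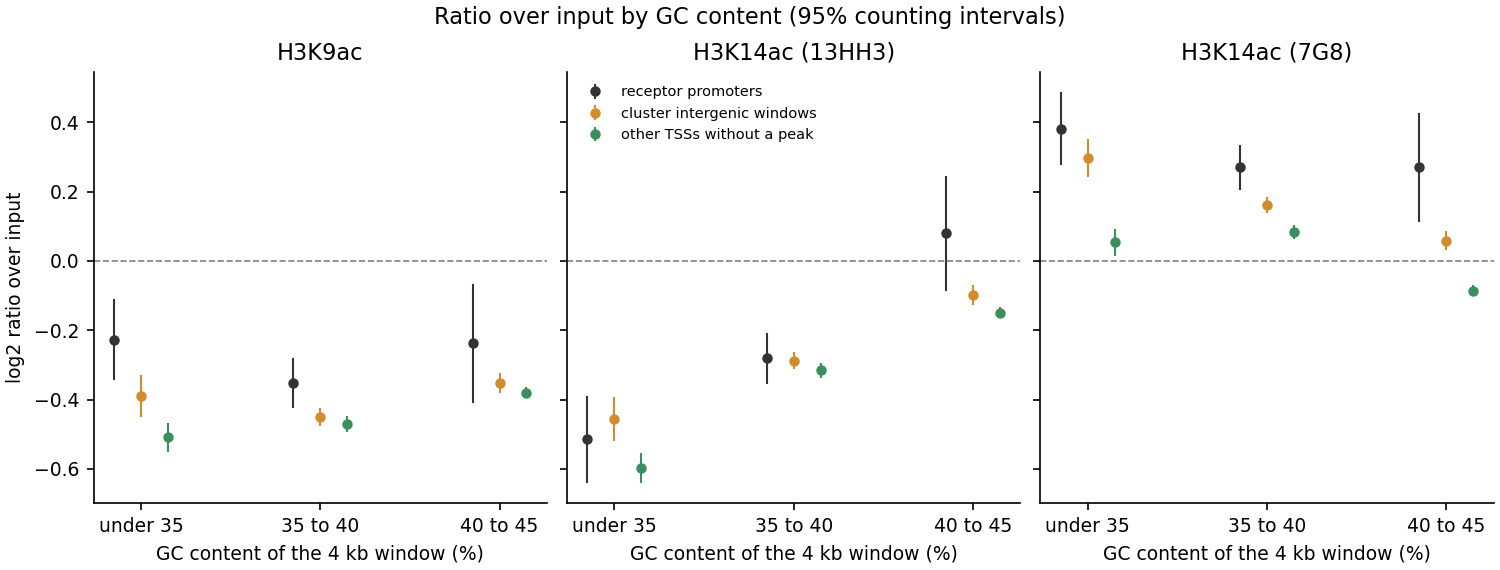
Log2 ratio over input (y axis) by GC content of the 4 kb window (x axis, 3 classes) for receptor promoters (black), intergenic windows of the clusters (orange) and other TSSs without an enriched region (green), one panel per ChIP library, with 95% counting intervals as bars. For 13HH3 all 3 sets rise with GC content, from -0.51 to 0.079 at the receptors. For 7G8 the receptors lie above the windows in each class, with overlapping intervals below 35%. They also lie above the other TSSs, which were chosen for lacking an enriched region.

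The genes through which the receptors signal, and those that accompany them in vomeronasal neurons, were followed from a list of 28 genes, of which 27 were found. H3K9ac regions lay at 12 of the 27, 13HH3 regions at 4 and 7G8 regions at 5, and 9, 4 and 3 were at least 2-fold over input. Over all TSSs, 66.2%, 29.1% and 26.0% had such a region, and 55.4%, 14.7% and 15.1% were at least 2-fold over input. The median log2 ratios were 0.12, 0.095 and 0.14. Tfap2e was not found under this name. Trpc2, the cation channel of vomeronasal signalling, held 301 tags of H3K9ac, 62 of 13HH3, 82 of 7G8 and 24 of input (log2 ratios 3.39, 1.21 and 1.47). The start of another gene, Rnf121, lies in the same window, so these tags cannot be assigned to either gene. The G protein subunits were at 1.73 (Gng8), 1.71 (Gnai2), 1.46 (Gnao1) and 0.65 (Gng13) for H3K9ac, each with an H3K9ac region and with a 13HH3 interval that holds 0. Plcb2, a phospholipase, had an H3K9ac region at 0.35 (-0.16 to 0.87). Lhx2, a transcription factor, at 0.58 (-0.017 to 1.19) and Calr4, a calreticulin, at -0.14 (-0.75 to 0.47) had none. Itpr3, a calcium release channel, stood at 2.05, and B2m, the light chain of class I molecules, whose window touches the gene Patl2, at 2.24. The transcription factors Meis2 (2.92) and Bcl11b (2.19) were also enriched for H3K9ac. The window of Meis2 holds 2 further starts of noncoding genes and that of Gnao1 holds 1.

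The H2-M genes and the formyl peptide receptor genes of the list had no H3K9ac region. None of the 9 H2-M genes, class I molecules made in Vmn2r neurons, had a region in any library, and their H3K9ac log2 ratios ran from -2.18 at H2-M10.5 (13 tags against 49 of input) to -0.098 at H2-M11. The 4 formyl peptide receptor genes, which lie within the span of cluster 17a, ran from -1.31 at Fpr-rs6 to 0.12 at Fpr-rs4 for H3K9ac. Fpr-rs6 had a 7G8 region although its whole window held 37 tags of 7G8 against 31 of input. Omp, a marker of mature olfactory and vomeronasal neurons that lies inside the gene Capn5, held 132 tags of 13HH3, 117 of H3K9ac, 69 of 7G8 and 67 of input, with log2 ratios of 0.82 for 13HH3 (0.38 to 1.26) and 0.54 for H3K9ac (0.096 to 1.00). Of 6 marker genes of these neurons 5 were found, and 4 of them had an H3K9ac region, Trpc2 and Omp among them. The share with an H3K9ac region over all TSSs was 66.2%.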

How the data were processed

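The labels give 1 library each of H3K9ac, H3K14ac (13HH3), H3K14ac (7G8) and input from mES cells. Reads of 36 bases were aligned to mm9 by the authors (ELAND, 1 mismatch allowed), and the deposited files list where each read mapped, with no normalization (unit other: positions). Since positions do not repeat in 3 of the files, 1 tag per position and strand was kept in the fourth too.

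Tags, with their 5′ ends shifted by 100 bp towards the fragment's middle, were counted within 2 kb of the TSSs of GENCODE vM1 (NCBIM37, the same build) and divided by the library's tags on chromosomes 1 to 19, X and Y. Ratios of pooled tags were given as log2 with exact 95% intervals (Clopper-Pearson, given the sum), and differences with intervals from summed variances of log counts. No p-value was computed. Enriched regions were windows of 400 bp every 50 bp whose tags had a Poisson probability below 1e-05, at a rate that was the highest of the genome mean and scaled input in 1, 5 and 10 kb. This step was tested on tags simulated at the genome mean rate with every position mappable. That test does not cover detection in windows with few tags or few unique starts. Unique starts were counted on both strands of the chromosome sequences, and all tags in the receptor windows lay at unique words. RefSeq starts (GRCm38.p6 table) were placed by exact match of the promoter sequence.

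Named are members with a region, the 3 highest and 3 lowest ratios per library among members with at least 10 input tags, the 3 with the most tags, members with few input tags per unique start, every cluster, and the pathway list, by values or range, of which 1 gene is counted but not reported here by name. Members and lists were chosen with earlier results of these data known. Alternatives were tried for the window, scaling, repeats, shift, unique starts, pseudocount, thresholds, clusters and chromosomes. Tools were Python 3.11.15 with matplotlib 3.10.9, pandas 2.3.3, numpy 2.4.6 and scipy 1.17.1.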

Additional observations from a re-analysis of the deposited data

How the results depend on the processing

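Most alternatives left direction and size as they were. Of those planned, 153 moved a result by less than its counting interval or 1.5 times and 23 moved it further. A further 1 turned the sign of a value whose interval left out 0. Of those chosen after seeing the data 23 did not move it, 3 did and 1 turned such a sign. Many alternatives leave out 1 chromosome and share most of their tags with the main value. Keeping all deposited tags cannot move H3K9ac or 7G8 over input, since these files and input hold 0 repeated tags. The counts are thus not counts of independent checks. Values whose interval holds 0 changed sign more often. The family difference of H3K9ac was 0.0185 with an annotated leader and 0.0132 without chromosome 7, that of 7G8 0.0134 at 50% unique starts, 0.056 on chromosomes with both families and 0.0165 with RefSeq starts, the ratio of 13HH3 to H3K9ac -0.0076 with all deposited tags, and the H3K9ac difference from the windows -0.0046 without chromosome 17. No paired analysis was possible because each antibody has 1 library. Scaling by bins without an enriched region turned the H3K9ac ratio of the members to 0.19 and moved 13HH3 to -0.089 and 7G8 to 0.37, by construction of the scaling, the ratios of 13HH3 and 7G8 to H3K9ac to -0.28 and 0.18, and the counts at least 2-fold over input to 17 (H3K9ac) and 6 (13HH3) and at most 0.5 of input to 20 (H3K9ac). For the other changes the cause was not tested. Medians over members gave -0.22, -0.21 and 0.19, and the difference of the families' H3K9ac medians was -0.22. Members with an annotated leader gave -0.22 for H3K9ac, -0.22 for 13HH3 and a family difference of 0.15 for 7G8. With 1 kb on each side the ratio of 7G8 to H3K9ac was 0.65. Against intergenic windows (alternatives added after seeing the data), windows without a region, picked by the same tags, gave 0.20 for H3K9ac. Windows and members of 35 to 40% GC gave 0.0075 for 13HH3 (sign turned) and 0.11 for 7G8, and the median over clusters gave 0.24 for 7G8. At a probability of 1e-10 the counts of members with a region were 0, 0 and 0. A pseudocount of 0.5 gave 5 members over input for 13HH3, the single intervals gave 4, and for 7G8 they gave 9 below input. Under 10% of the mean input per unique start, 2 members remained. Leaving out each chromosome gave -0.31 to -0.26, -0.30 to -0.24 and 0.28 to 0.31 for the ratios over input of H3K9ac, 13HH3 and 7G8, -0.13 to 0.013, 0.014 to 0.20 and -0.089 to 0.056 for the family differences, and -0.0046 to 0.19 (0.19 without chromosome 7), -0.10 to -0.039 and 0.16 to 0.20 for the differences from the windows. At the median input of 17 tags, depth limits single promoters to folds near 1.86, copies leave 95 members with under 50% unique starts, and 1 library per antibody gives no spread between cultures.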

Other observations

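Unannotated windows in the clusters were not uniformly low. The 826 intergenic windows of 7c stood at 0.0013 for H3K9ac and 0.34 for 7G8, those of 7e at 0.22 and 0.32 and those of 17b at 0.13 and 0.24, whereas those of 6d stood at -0.80 and -0.18 and those of 7d at -0.78 and -0.080. The receptor promoters among them stood at 0.10 for H3K9ac in 7e and -0.53 in 6d. The 5 members whose window also touches another protein-coding gene had log2 ratios of 0.28 for H3K9ac (-0.24 to 0.80), -0.42 for 13HH3 (-1.02 to 0.17) and 0.63 for 7G8 (0.15 to 1.13), and the 308 members without any other gene in the window had -0.30, -0.28 and 0.30.

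Across the 224 members with at least 50% unique starts, which share libraries and sequence composition, Spearman's rho was 0.734 between 13HH3 and 7G8 tags, 0.647 between H3K9ac and 13HH3 and 0.676 between H3K9ac and 7G8, beside 0.588 to 0.640 between each ChIP library and input.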
